A study of Mus with 5 samples.

Results

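The regions described here are the 647 RARα peaks of control CD8 T cells that lay beside a BATF peak and had no RARα peak after the cells were given retinoic acid (RA). They were chosen from 1160 peaks of the RARα control list on chromosomes 1-19, X and Y by 3 of the deposited lists. Each had a BATF control peak within 5 kb, and none had a peak of the RARα RA list within 5 kb. The 4 lists of the series hold 27480 peaks together. RARα, BATF and RA are described by peaks called in 1 pool per antibody and condition, so every comparison between control and RA is between 2 pools without replicates, and no test of it was possible.

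All cells were wild-type (WT) primary CD8 T cells from mouse spleen, labelled as naive cells. Activation by antibodies to CD3 and CD28 in the presence of IL-2 lasted 24 h, a rest in 100 U/ml IL-2 took another 24 h, and RA was then given at 50 nM or left out (control) during the last 1 h. Chromatin was precipitated with an anti-RARα antibody, an anti-BATF antibody or normal rabbit IgG, and 1 IgG file served as the background of all 4 lists. The sample labels name a different interleukin for each library where the protocol names IL-2, they do not say whether the IgG cells had received RA, and the number of mice is not given in the sources used here. The lists hold no expression values, so the cell type could not be checked against its markers. Fragments numbered 22655611 for RARα control, 22475060 for RARα RA, 23110180 for BATF control, 16424269 for BATF RA and 11410673 for IgG. BATF RA was thus the shallowest of the ChIP pools, and fewer BATF peaks with RA cannot be told apart from lower depth or a weaker precipitation of that pool.

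RARα is a nuclear receptor that binds DNA as a heterodimer with RXR. Without its ligand it is known to recruit corepressors, and RA binding exchanges these for coactivators such as NCOA3. BATF is a bZIP factor of the AP-1 family that pairs with JUN proteins and binds composite elements with IRF4 or IRF8 in activated T cells, where it is known for opening chromatin at effector genes. A site bound by both factors before RA is a place where a receptor and a T cell activation factor share chromatin, and the comparison with RA asks which of them is still found there.

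What chose the regions is described first. Of the 1160 RARα control peaks, 726 (62.6%) had a BATF control peak within 5 kb, and 1049 (90.4%) had no RARα RA peak within 5 kb. The 647 regions are the overlap, 55.8% of the list (95% Wilson interval, 52.9 to 58.6, which like every interval here covers counting error only). Absence of RARα with RA was not particular to the BATF sites, since it held for 89.1% of the sites near BATF (86.6 to 91.2) and for 92.6% of those away from it (89.8 to 94.7). The other 79 sites near BATF, which had a RARα RA peak within 5 kb, are called kept sites below, and the 402 RARα peaks with neither BATF nor RARα RA within 5 kb are called BATF-free sites. At the edge of the 5 kb rule, the members near Nabp1 and Rpl21 lay 4904 and 4826 bp from a BATF control peak, while sites near Metrnl and Asap1 lay 5091 and 5127 bp from one and were left out. On the RARα side, members at Gimap7 and Lif lay 6928 and 6933 bp from a RARα RA peak, and sites at Lef1 and Tspan32 lay 4973 and 2938 bp from one and were left out.

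Most members were modest RARα peaks. Fold enrichment is the fragment pileup plus 1 over the IgG level plus 1, as the peak caller gives it. The median RARα fold of the members was 3.22 (quartiles 2.82 and 3.86, range 2.01 to 17.8) from a pileup of 15.0 fragments (9.00 to 105). Kept sites had a median fold of 5.03 and a pileup of 24.0, and BATF-free sites had 3.04 and 11. The -log10 p of the caller was at least 5 at 326 members (50.4%), at 82.3% of kept sites and at 22.9% of BATF-free sites, and the deposited q-value was above 0.05 at 395 members (61.1%). Absence with RA was frequent up to a -log10 p of 10 and less frequent above it. It was seen at 130 of 139 sites near BATF with a -log10 p from 3 to 4 (93.5%). From 4 to 5, 5 to 7 and 7 to 10 the shares were 97.4%, 94.0% and 92.5%. Above these bands it was seen at 58 of 82 from 10 to 20 (70.7%) and at 15 of 38 of 20 or more (39.5%). The local IgG level over its background was a median of 1.30 at members and over 2 times the background at 116 of them (17.9%), against 24.1% of kept sites and 2.99% of BATF-free sites.

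A peak that is not called is not a site without RARα. The smallest pileup that would have passed the caller's p cutoff of 0.001 in the RA pool was worked out for each member from its local IgG level. It was a median of 11 fragments (9 to 25), beside the 15.0 counted in the control. At 231 members (35.7%) the control pileup was within 2 fragments of that limit, so a difference of a few fragments is enough for the call to be absent. At 144 members (22.3%) the lower end of the exact Poisson 95% interval of the control pileup was above the limit, and at 67 (10.4%) the control pileup was at least 2 times the limit. At the 62 kept sites whose RARα RA peak overlapped the control peak, the RA pileup was a median of 0.650 of the control pileup (quartiles 0.561 and 0.797) and was lower at 53. These sites needed a called RA peak to count as kept, so their ratios are held up by the limit of the call and say nothing of the ratio at the members.

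**Figure D1:**
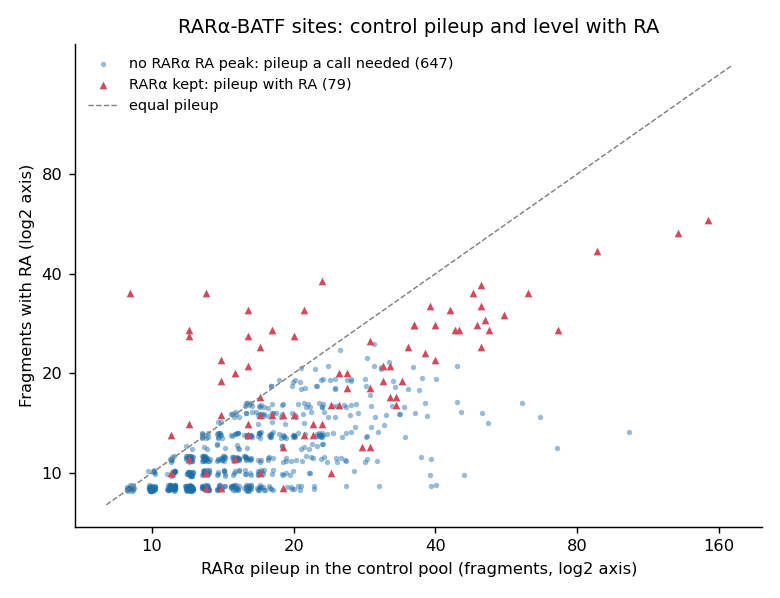
RARα pileup in the control pool (x axis, fragments, log2 scale) against fragments with RA (y axis, log2 scale). Blue points are the 647 members at the pileup that a call with RA needed, slightly jittered. Red triangles are the 79 kept sites at their pileup with RA, and the dashed line marks equal pileup. Of the members, 231 lie within 2 fragments of the line. Another 67, led by the one at 105 fragments, have a control pileup at least 2 times their limit.

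The 10 members of highest RARα fold show what a clear loss of the call looked like. The strongest lay in Lig1, which encodes the ligase that joins Okazaki fragments (mm10 chr7:13302406-13303309). The coarse annotation of the list calls this site exonic and the detailed one intronic. It had 105 fragments and a fold of 17.8 in the control, and a call with RA needed 13. The BATF peak there had a fold of 6.42 in the control and 5.65 with RA, so BATF was called in both pools where RARα was called in one. The promoter of Art2b, a cell surface ADP-ribosyltransferase of T cells (chr7:101580903-101581555), had 71 fragments and a RARα fold of 13.8, with BATF at 5.10 and 6.21. An intron of Asb2, the substrate-binding part of a ubiquitin ligase (chr12:103341066-103341573), had 47 fragments and a RARα fold of 11.2. BATF at Asb2 was strong in both pools, at 15.9 and 15.5. An intergenic site 29241 bp from Sgip1 (chr4:102711743-102712061) had a RARα fold of 10.6 and BATF at 26.7 and 25.1, and a site in Mtmr3, a phosphoinositide phosphatase (chr11:4497193-4497778) with the same conflict of annotations, had 10.1 with BATF at 18 and 14.6.

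The other sites of the 10 varied more in BATF. Near Gimap9, a GTPase gene of lymphocytes (chr6:48679607-48680420), RARα had 68 fragments and a fold of 9.92, and the BATF peak of 5.50 over the site was not called with RA, while one of 6.55 was called 1316 bp away. At a site 12646 bp from Ifngr2, the signalling chain of the interferon gamma receptor (chr16:91533087-91534413), RARα had a fold of 9.73, and BATF had 3.95 before RA and 9.69 after it. The BATF pileup there was 1.69 and 1.83 fragments per 1000000 of the pool, and the IgG level at the BATF summit was 3.15 times its background in the control list and 1.09 times in the RA list, so the ratio of folds was far from that of the pileups. Selp, which encodes P-selectin, had RARα at 8.15 and BATF at 18 and 12.8. Hivep2, a zinc finger factor gene, had RARα at 8.05 and BATF at 7.04 and 4.35, and a site 155685 bp from Tle3, a Groucho corepressor gene, had RARα at 7.99 and BATF at 13.3 and 12.9. BATF was called with RA within 5 kb of all 10 sites.

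**Figure D2:**
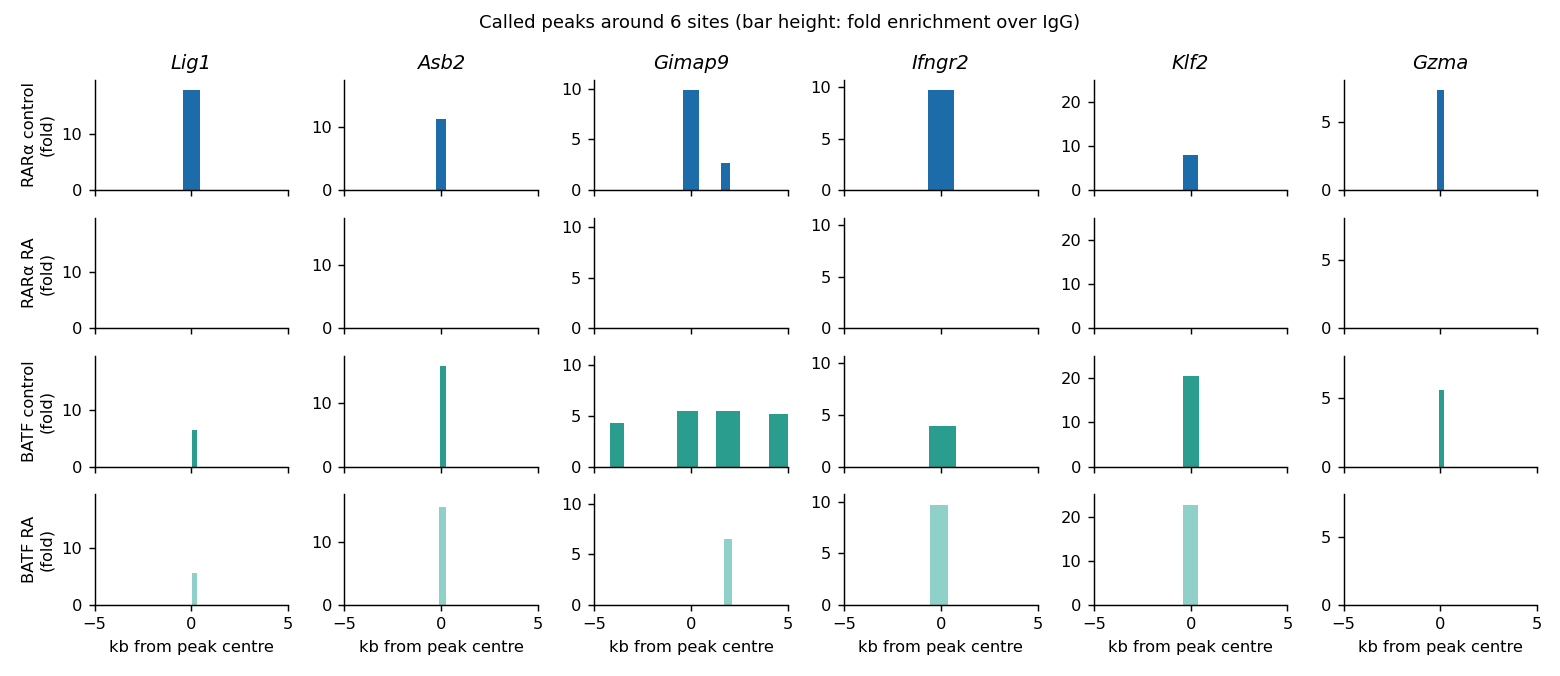
Called peaks of the 4 lists around 6 sites, named by a gene nearby; the x axis is the distance from the centre of the RARα control peak in kb and the bar height is fold enrichment over IgG, with 1 y scale per site. The RARα RA row is empty at all 6, and a BATF RA bar stands at Lig1, Asb2, Ifngr2 and Klf2, beside the site at Gimap9, and nowhere in the window near Gzma.

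The rule placed a BATF control peak within 5 kb of every member, and most lay closer than it required. The spacing was not set against an expected one. The RARα peak overlapped a BATF control peak at 561 of 647 (86.7%), and one of the 2 peaks lay wholly within the other at 360 (55.6%). Summits were a median of 157 bp apart (quartiles 55 and 417), within 50 bp at 154 members (23.8%) and within 200 bp at 371 (57.3%). Kept sites had a median of 99.0 bp. The BATF control peaks at members had a median fold of 6.54 (2.57 to 58.9) and pileup of 35.5, beside 5.40 and 30.6 for all BATF control peaks. Across the members the folds of the factors showed almost no correlation (Spearman rho 0.051, Pearson r of log2 values 0.082, over 647 sites that share the IgG file). The 5 members with the highest BATF fold had RARα folds of 2.52 to 4.74. They lay 6136 bp from B430306N03Rik, a gene of the Treml cluster (BATF 58.9 in the control and 60.3 with RA), 5804 bp from Ifnar2, a chain of the type I interferon receptor (52.4 and 52.9), 62748 bp from Tomm20, a mitochondrial import receptor (45.7 and 38.5), at the shared promoter of the purine synthesis genes Paics and Ppat (39.4 and 30.7), and 13703 bp from Gtsf1l (38.5 and 42.3).

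**Figure D3:**
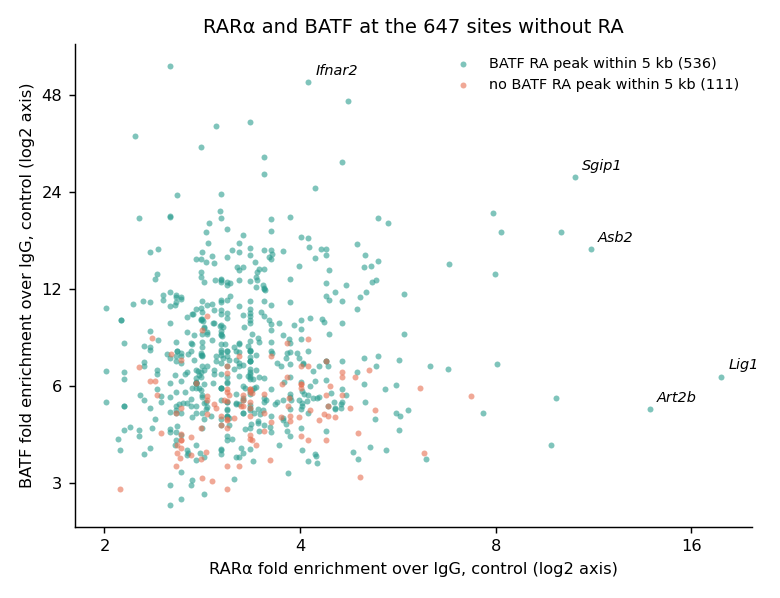
RARα fold (x axis) against BATF fold (y axis) in the control pools at the 647 members, both on log2 axes, green where a BATF RA peak lay within 5 kb (536) and orange where none did (111). The 111 sites lie at BATF folds up to 9.88 and RARα folds up to 7.34.

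BATF was mostly still found at these sites with RA. The BATF RA list was not used to choose the members, although the BATF control list was. Of the 647 members, 536 had a BATF RA peak within 5 kb (82.8%, 79.7 to 85.6), against 69.9% of all BATF control peaks and 91.1% of kept sites (72 of 79, 82.8 to 95.6). Overlap of at least 1 bp with a BATF RA peak was found at 415 members (64.1%), and 54.4% of all BATF control peaks overlapped a BATF RA peak. The member shares count RARα peaks and the others BATF peaks. Of the 635 BATF control peaks paired with members, 83.5% had a BATF RA peak within 5 kb and 72.4% overlapped one. For BATF control peaks with no RARα control peak within 5 kb these shares were 68.6% and 53.9%. Of all 1160 RARα control peaks 54.5% had a BATF RA peak within 5 kb, and of BATF-free sites 4.23%. The share followed no steady order with the member's RARα strength. It was 82.3% at a -log10 p from 3 to 4, 75.7% from 7 to 10, and 14 of 15 (93.3%) at 20 or more. Among the 144 members whose RARα pileup stood clear of the limit, it was 117 (81.2%, 74.1 to 86.8).

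Members had stronger BATF control peaks than the rest, so the shares were compared within bands of BATF control pileup, over the 635 BATF peaks paired with members and the 14678 with no RARα control peak within 5 kb. Up to a pileup of 20, BATF was called again within 5 kb for 57.7% of the former (44.2 to 70.1) and for 47.0% of the latter (45 to 49.1), and these intervals overlap. From 20 to 30 the shares were 70.5% (63.7 to 76.5) and 56.2% (54.8 to 57.5), from 30 to 45 they were 88.2% (82.8 to 92.1) and 75.2% (73.9 to 76.5), and from 45 to 70 they were 97.0% (92.5 to 98.8) and 91.8% (90.6 to 92.9). Over 70 both were close to complete, at 71 of 71 and 99.0%. With at least 1 bp of overlap in place of 5 kb, the shares were 52.8% and 35.8% from 20 to 30, and 80.7% and 66.6% from 30 to 45. From 20 to 45, then, BATF peaks beside the members were found again more often in this 1 BATF RA pool than BATF peaks of like pileup elsewhere. The intervals do not overlap there and overlap slightly from 45 to 70. They count each peak as independent, although some peaks are neighbours, and do not cover variation between pools. Whether the difference would recur in other pools was not tested. The median IgG level in the 3 bands from 20 to 70 was 1.40, 1.51 and 1.71 times the background at members and 1.43, 1.75 and 2.10 at the other peaks, and its part in the difference was not tested. The 70 BATF peaks of kept sites had shares of 85.7% (65.4 to 95) and 88.9% (67.2 to 96.9) in the bands from 20 to 30 and from 30 to 45, within counting error of the members.

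**Figure D4:**
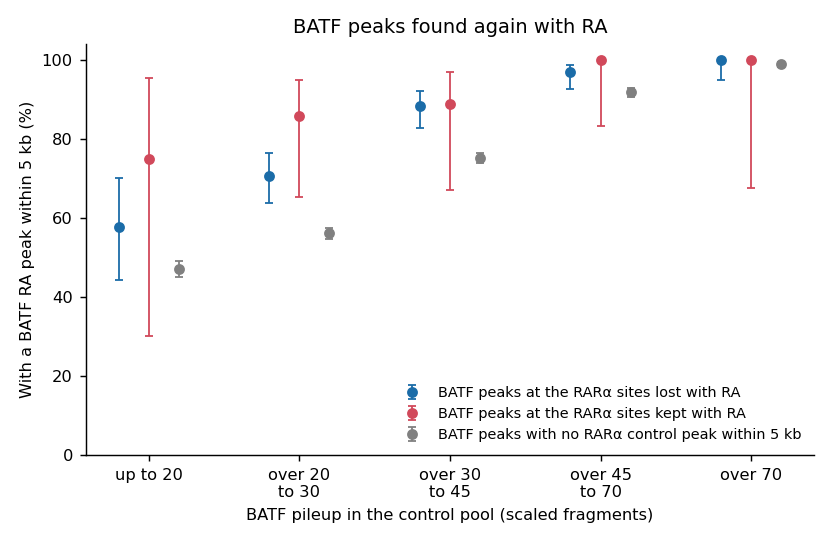
Share of BATF control peaks with a BATF RA peak within 5 kb (y axis, percent) by band of BATF control pileup (x axis, scaled fragments), for peaks paired with members (blue), with kept sites (red) and with no RARα control peak within 5 kb (grey); bars are 95% Wilson intervals. The blue points lie above the grey ones, at 70.5% against 56.2% in the second band and 88.2% against 75.2% in the third.

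Where BATF was called in both pools its fold was slightly lower with RA, and members did not stand apart in this. At the 536 members BATF had a median fold of 7.16 before and 6.09 after RA, giving a median log2 ratio of RA over control of -0.21 (quartiles -0.51 and 0.11), below 0 at 360 (67.2%). The median was -0.13 at kept sites and -0.21 at BATF peaks with no RARα control peak within 5 kb, of which 67.7% were below 0. The ratio showed little relation to RARα fold (Spearman rho 0.098, Pearson r 0.127, over 536 sites). Among members with a BATF control pileup of at least 30, the lowest ratios were in an intron of Laptm5, a lysosomal protein of blood cells (-1.88, from a fold of 11.7 to 3.17), at the promoter of Csnk1g2 (-1.49), at the promoter of Gpr132 (-1.44, or -0.24 for another BATF RA peak over the same control peak), in Cd3d, a chain of the T cell receptor complex (-1.43, from 9.38 to 3.48), and 3171 bp from Znrf4 (-1.40). At Laptm5 the IgG level was 1.43 times the background at the BATF control summit and 3.55 times at the BATF RA summit, and the log2 ratio of depth-scaled pileups was -0.75. At Csnk1g2 and Cd3d that ratio was -1.88 and -0.99.

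The highest ratios came largely from how peaks were paired. In introns of Rpap2, which encodes a phosphatase of RNA polymerase II, and Ptpre, a receptor-type tyrosine phosphatase gene, the ratio was 1.70 and 1.41. At both sites the BATF RA peak did not overlap the BATF control peak nearest to the member. Against the control peak that lay under the BATF RA peak, the ratio was -0.14 at Rpap2 and 0.37 at Ptpre. The site nearest to Gm38457 had overlapping peaks and a ratio of 1.31, from 5.43 to 13.5. In all, 96 of the 536 pairs (17.9%) did not overlap, or had another BATF RA peak nearer to the middle of the BATF control peak. At 80 of these a BATF control peak lay under the BATF RA peak. At some, such as Rpap2, it was another control peak, and at some, such as Gpr132, it was the one already paired. A BATF RA peak within 5 kb of a member is therefore in some cases a neighbouring BATF site.

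**Figure D5:**
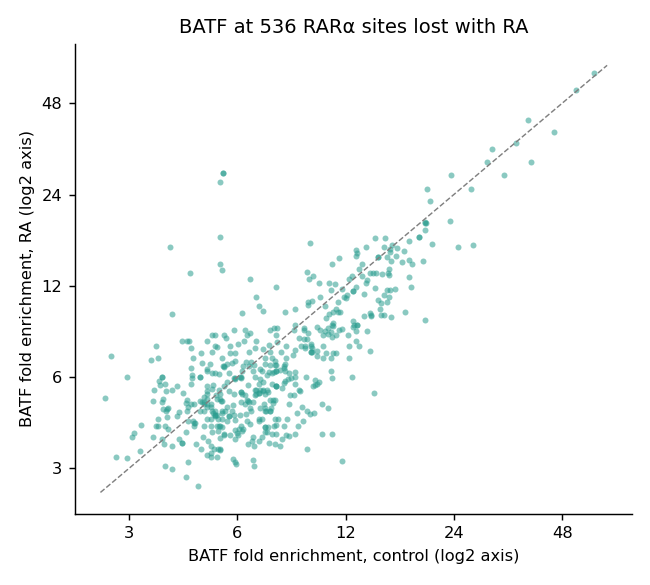
BATF fold enrichment in the control (x axis) and with RA (y axis) at the 536 members with a BATF RA peak within 5 kb, both on log2 axes, with a dashed line at equal fold. Points gather slightly below the line, and the isolated points far above it include the site at Rpap2, at 5.36 and 17.4, whose 2 BATF peaks do not overlap.

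At 111 members neither factor was called within 5 kb with RA. Their BATF control peaks were weaker, with a median fold of 5.14 and pileup of 25.7 against 7.16 and 38.5 at the 536 others, while their RARα fold was 3.35 against 3.19. Promoters made up 17.1% of them (11.2 to 25.2) and 30.8% of the others (27.0 to 34.8). The nearest BATF RA peak was 5089 to 343861 bp away, with a median of 24954. The member of highest RARα fold among them lay 33859 bp from Gzma and 36453 bp from Gzmk, granzyme genes of cytotoxic granules, nearest to Cdc20b. It had 51 RARα fragments, a RARα fold of 7.34 and a BATF fold of 5.60 in the control, with an IgG level of 2.11 times the background and the nearest BATF RA peak 34846 bp away.

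The members sat at different parts of genes from the bulk of BATF peaks. By the coarse annotation in the lists, 184 members (28.4%, 25.1 to 32.0) were at promoters, 208 (32.1%) in introns, 238 (36.8%) between genes and 17 (2.63%) in exons. Kept sites had 29.1% at promoters and BATF-free sites 4.98%, whereas 60.6% of BATF peaks with no RARα control peak within 5 kb were at promoters. The detailed annotation of the same lists placed fewer sites at a promoter, 80 members (12.4%, 10 to 15.1), 15.2% of kept sites, 1.74% of BATF-free sites and 28.4% of the other BATF peaks, so the order of members, BATF-free sites and other BATF peaks was the same by both. It did not name a promoter at 107 of the 184 promoter members, CpG island and repeat labels included, and gave 5 of the 17 exonic ones as intronic. BATF was called again within 5 kb at 165 of 184 promoter members (89.7%, 84.4 to 93.3), at 161 of 208 intronic ones (77.4%, 71.3 to 82.6) and at 194 of 238 intergenic ones (81.5%, 76.1 to 85.9). For the other BATF peaks, classed by their own position, these shares were 73.5%, 62.3% and 59.2%, so members were higher in each of the 3 classes. The members were classed by their RARα peak, and these shares were not banded by BATF control pileup, which was higher at members. Repeats were annotated at 91 members (14.1%), 21.5% of kept sites and 35.1% of BATF-free sites, and CpG islands at 27 members (4.17%). A protein-coding gene of RefSeq overlapped 377 members (58.3%), and for 71 the nearest was over 50 kb away.

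Some members lay in groups along a chromosome. Joining members up to 50 kb apart gave 558 loci, of which 486 held 1 member and 72 held 2 or more (161 members). The largest group held 5 members near Dusp5, a nuclear phosphatase gene that acts on ERK, and Smndc1 (chr19:53424587-53465130), and all 5 had a BATF RA peak within 5 kb. The cytokine receptor genes Il4ra and Il21r shared 4 (chr7:125554297-125607824), again all with BATF RA. Groups of 3 at Ifngr1, at Lif and Osm, at Irf1 and Slc22a5, at Sema4d, at Sema7a and at Gimap7 and Gimap9 had a BATF RA peak within 5 kb of every member. That peak did not always overlap the member, and it lay 1535 bp away at Gimap7 and 3377 bp away at 1 member near Ifngr1. The 3 members at Klf13, a zinc finger factor gene (chr7:63973357-63984956), had none. By the annotation's gene assignment, which can give a peak to several genes, the genes with the most members were 5830416P10Rik with 5 and Eps15l1, Foxp1 and Gm19589 with 4 each. BATF RA was found at 1 of the 4 at Eps15l1, which borders Klf2, and at 3 of the 4 at Foxp1, the gene of a forkhead factor that holds T cells in quiescence.

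The gene lists that follow are counted by that assignment. Of 21883 protein-coding genes, 4.25% had a member, as did 8.75% of the 10643 with a BATF control peak. Of the 192 genes on all lists together, 170 had a BATF control peak, 83 a RARα control peak and 65 a member. By distance alone, 46 of the 192 had a member within 10 kb, 43 of them among the 65, against 2.63% of all protein-coding genes. These genes had 77 members, with a median RARα fold of 3.36 beside 3.22 for all members, and 64 of the 77 had a BATF RA peak within 5 kb. In the lists below, a member said to have BATF RA has such a peak within 5 kb, whether or not it overlaps the member. The lists were put together from T cell biology with earlier results of these data known, and members are shared where one gene is on several lists. A gene with a member can also have a RARα site that was kept. Kept sites at Lef1, Ifngr1 and Lif had RARα folds of 10.7, 7.44 and 6.61 in the control, above those of the members at these genes.

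Among transcription factors of effector cells, 11 of 18 genes had a member, and 14 of the 15 members had BATF RA. Irf8, a partner of BATF at composite elements, had the strongest, 20734 bp from the gene (RARα 5.78, 22 fragments, BATF 8.70 in the control and 10.1 with RA), and a second at 10039 bp. Runx3, which sets the cytotoxic lineage, had one at 11672 bp (RARα 5.28, BATF 14.6 and 13.2). Irf4 had one 46277 bp away (RARα 3.77, BATF 4.78 and 6.70) and Tbx21, the gene of T-bet, one 11630 bp away (RARα 2.52, BATF 10.6 and 9.40). At Tbx21 the control pileup of 14 was 1 fragment above the limit of 13. Zeb2, which acts with T-bet in terminal effector cells, had the member without BATF RA (RARα 3.35, BATF 5.88). Of 19 AP-1 and bZIP genes 4 had a member. These were Jund 2136 bp away (RARα 2.80, BATF 5.93 and 6.80), Jun 55360 bp away (3.14), Fos 26488 bp away (3.02) and Bach2, whose product competes with AP-1 factors for their sites (3.22, BATF 3.39 and no BATF RA peak within 5 kb).

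Memory and stemness genes had 8 of 14 genes with a member, and 6 of the 12 members had BATF RA, beside 82.8% of all members. Klf2, the factor that drives S1pr1 in resting T cells, had 3. One lay 9279 bp from the gene with 62 RARα fragments, a RARα fold of 7.93 and BATF at 20.6 and 22.8, and it was followed by sites 41446 and 39546 bp away with RARα at 6.12 and 4.53 and BATF at 5.93 and 4.82 without BATF RA. S1pr1, the receptor for exit from lymph nodes, had one 43593 bp away with BATF at 23.6 and 27.8. No BATF RA peak lay within 5 kb of 1 of 2 members at Lef1 (RARα 3.86, BATF 4.67), 1 of 2 at Ccr7, or those at Bcl6 and Id3. The share rests on 12 members, of which 3 belong to Klf2.

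Cytokine receptors had 10 of 20 genes with a member, and 12 of 14 members had BATF RA. Besides the site near Ifngr2, which is also assigned to Ifnar1, the promoter of Il2rb, the shared beta chain of the IL-2 and IL-15 receptors, had RARα at 4.52 with BATF at 11.7 in both pools. A site 22504 bp from Il2ra had RARα at 4.51 beside a BATF control peak of 5.37, and its BATF RA peak of 26.3 lay 2355 bp away, over another BATF control peak of 27.2. An intron of Il21r had RARα at 3.62 with BATF at 15.4 and 17.3. Ifngr1 had 3 members, 97097, 61774 and 13834 bp away, with RARα at 3.52, 3.35 and 2.37. Il18r1, a chain of the IL-18 receptor, had a promoter member with BATF RA (RARα 3.35, BATF 7.39 and 5.06) and an intronic one without (RARα 3.06, BATF 5.44).

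Cytotoxic and cytokine effector genes had 7 of 19 with a member, and 6 of 7 members had BATF RA. Beside the site near Gzma, one lay 21530 bp from Ifng, the gene of interferon gamma (RARα 5.05, 20 fragments against a limit of 10, BATF 11.7 and 8.62). Lif, a cytokine of the IL-6 family, had one 16633 bp away (RARα 4.91, BATF 3.56 and 4.14) and one in an intron (RARα 2.77), and Fasl had one at 1289 bp (RARα 4.19, BATF 5.50 and 6.48). Sites at Lta and Ccl5 had RARα at 3.83 and 2.52 over IgG levels of 3.10 and 3.79 times the background. The BATF RA peaks of these sites did not overlap them and lay 3858 and 1270 bp away. That of the Lif intron lay 4369 bp away. Costimulation and T cell receptor signalling had 12 of 29 genes with a member, and all 11 members had BATF RA. Dusp5 had RARα at 4.63 in an intron (BATF 5.27 and 5.10), and Cish, which encodes a cytokine-induced inhibitor of signalling, had 4.21 from 45 fragments over an IgG level of 3.45 times the background. The Cd5 promoter had 4.04 (BATF 7.08 and 7.43), and the promoter of Zap70, the kinase that binds the activated receptor, had 4.02 (BATF 9.63 and 7.28).

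Trafficking receptors and integrins had 7 of 20, with 6 of 8 members beside BATF RA, among them Itgb2, 9399 bp away (RARα 3.69, BATF 7.08 and 5.44), and an intron of Itgb7 (3.02, BATF 5.93 and 7.22). NR4A, TOX and inhibitory receptor genes had 2 of 14, Nr4a1, an early response nuclear receptor (RARα 5.23, 25 fragments against a limit of 11, BATF 6.91 and 3.70), and an intron of Cd274, which encodes PD-L1 (RARα 3.11). Histone acetyltransferase, deacetylase and coregulator genes had 3 of 17. An intron of Ncoa3 had RARα at 4.38 and BATF at 4.09 with no BATF RA peak within 5 kb. The stronger RARα site of Ncoa3 was a kept site (RARα 13.3 in the control and 6.62 with RA, BATF 6.12 and 5.62). Hdac7 had an intronic member (3.02, BATF 3.83 and 4.42). Of 20 genes for retinoid receptors, retinoid metabolism and classical RA targets 1 had a member, an intronic site of Rara itself with 13 RARα fragments against a limit of 10 (RARα 3.19, BATF 5.68 and 6.21). This was also the sole gene of that list with a RARα control peak, and 8 had a BATF control peak. Of 22 genes that the study names at RARα and BATF peaks 16 had a member, and 18 of their 22 members had BATF RA. That list was chosen by the study on these samples and is not independent evidence.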

How the data were processed

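Chromatin immunoprecipitation was sequenced for RARα and BATF, each without and with RA. Per the file headers, the authors aligned to mm10, pooled 2 ChIP files per list and called peaks in MACS 2.2.7.1 from fragments of read pairs against 1 IgG file, with p cutoffs of 0.001 for RARα and 1e-05 for BATF, and the peaks were annotated in HOMER. The processing notes of the submitters also name Bowtie2. The deposited columns used here hold the pileup (signal, in fragments, scaled in the BATF control list), the fold enrichment (a ratio of pileup plus 1 to IgG level plus 1), and -log10 p and -log10 q values. The headers state that the q-value was not calculated, yet the column is filled.

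Peaks were compared by the gap between their edges, within 5 kb, and paired by nearest midpoint. The IgG level was recovered from pileup and fold; recomputed Poisson -log10 p values differed from the deposited ones by at most 3.7e-04. Shares have Wilson 95% intervals. Lists of 1 pool per condition allow no test. Overlap steps were tested on simulated data. Python 3.11.15, pandas 2.3.3, scipy 1.17.1 and RefSeq gene positions of GRCm38.p6 were used, and 1049 of 1050 assigned symbols matched. No genome sequence was used here, so motif content was not analysed.

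The members, lists and alternatives were chosen with earlier results of these data known. Named sites are the 10 of highest RARα fold, the 5 of highest BATF fold, the 5 highest and 5 lowest BATF ratios at a BATF control pileup of at least 30, the genes with most members, the strongest sites of each gene list and those nearest the 5 kb limit; the loci and the site of highest RARα fold without BATF RA were named after their values were seen. Some sites that this rule would name are not reported here.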

Additional observations from a re-analysis of the deposited data

How the results depend on the processing

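Of 40 values recomputed under an alternative, 22 stayed within 1.5 times the count or within the interval of the value reported, and 18 moved. Only the median log2 BATF ratio has a sign that could reverse, and it stayed negative under each alternative. The other values are counts, shares or distances. Members numbered 326 where RARα control peaks needed a -log10 p of 5, and 252 where they needed a q-value of 0.05 or less. The share of members with a BATF RA peak was 64.1% with at least 1 bp of overlap, 71.6% within 1 kb, 86.2% within 10 kb and 61.8% for BATF RA peaks with a fold of at least 5. The median log2 BATF ratio was -0.11 without the constant added to pileup and IgG level. The median distance from RARα to BATF was 181 bp between midpoints and 157 bp between summits. Promoters made up 21.5% of members past a -log10 p of 5, and by the detailed annotation 12.4% of all members. With 1.5 times the local IgG level, 57 members in place of 144 had a Poisson lower bound above the limit for a call with RA. Counting genes within 10 kb of a member gave 46 in place of 65 over all lists, and fewer for every list except the 2 of the inhibitory receptor list, which stayed, and the retinoid list, with 2 in place of 1. Limiting members to those overlapping their BATF control peak, leaving high IgG sites out of the BATF ratio, the bands by overlap and the detailed annotation were chosen after seeing the data. No paired analysis was possible because each condition has 1 list made from pooled files. For the same reason no replicate could be left out. Motif alternatives and distance to a gene start were not run, since no genome sequence and no gene strand were used here.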

Other observations

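Genes of the lists with a RARα control peak but no member are the following, among others. Sites assigned to Nfkb1, Btla and Gfi1 overlapped BATF control, RARα RA and BATF RA peaks alike, with RARα folds of 5.82, 4.89 and 5.32 in the control. The site at Prdm1, the gene of BLIMP-1, lay 22145 bp from the nearest BATF control peak (RARα 4.19). The site at Il12rb2, a chain of the IL-12 receptor, lay 8458 bp from the nearest BATF control peak yet overlapped a BATF RA peak (RARα 3.86). It is one of 17 among the 402 BATF-free sites with a BATF RA peak within 5 kb.

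The X chromosome held 3 of the 647 members (0.464%, 95% Wilson interval 0.158 to 1.35), 8 of the 1160 RARα control peaks they came from (0.690%, 0.350 to 1.35), 5 of the 402 BATF-free sites (1.24%, 0.532 to 2.88), 233 of 15810 BATF control peaks (1.47%, 1.30 to 1.67) and 114 of 9894 BATF RA peaks (1.15%, 0.960 to 1.38). No member lay on the Y chromosome.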
